A study of Mus musculus with 9 samples.

Results

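The genes described here encode receptors that natural killer (NK) cells use to recognise other cells, together with a transcription factor and a cytokine receptor chain of the same cells. They were chosen by name from the table of gene counts, with earlier results of these data known. In that table all 10 of 10 were found among its 21930 genes: Ncr1, Klrb1c, Klra4, Klra8, Klrk1, Klrd1, Klre1, Klrg1, Eomes and Il2rb. All 10 also passed the filter on low counts, which kept 15636 genes. Bulk RNA of whole lung was sequenced from 9 mice labelled male C57BL/6, 6 to 8 weeks old, in 3 groups of 3. The LPS plus RSBD mice (RSBD 1 to 3 below) received lipopolysaccharide (LPS), a bacterial outer membrane component, into the trachea at 2 mg/kg under tribromoethanol, and then daily oral Renshen Baidu Powder (RSBD), a Chinese herbal decoction. The LPS mice received the same instillation and vehicle, and the control mice received saline into the trachea. Lungs were collected on day 5 after LPS, and with 5 daily doses that began a day later the number of RSBD doses each mouse had received is unclear. The groups set LPS against saline, and LPS with RSBD against LPS alone.

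NK cells are innate lymphocytes of blood and tissues, and the lung holds many of them. Each cell weighs signals from activating receptors against signals from inhibitory receptors. Many activating receptors pair with adaptor proteins that carry tyrosine activation motifs, and inhibitory receptors mostly carry inhibitory motifs in their own tails. In the mouse most of these receptors are lectin-like proteins encoded side by side on chromosome 6, and most inhibitory ones bind MHC class I or related molecules of the body's own cells. In bulk lung RNA, more cells of a type and more RNA per cell cannot be told apart.

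Total counts ranged from 26959662 to 36113905 per library. Lung markers were present in every library, with a summed level of 105300 to 130800 TPM (reads scaled for gene length and library total) in LPS plus RSBD, 90050 to 117600 in LPS and 117700 to 161000 in control libraries over 9 surfactant, alveolar, airway and endothelial genes. Transcripts of chromosome Y numbered 7511 to 10918 in the LPS and LPS plus RSBD libraries and 6 to 9 in the control libraries, although all mice are labelled male. Every comparison with control below therefore also compares libraries with and without chromosome Y transcripts, and the treatment and this difference cannot be told apart. Levels are in CPM, counts scaled to the library total after TMM correction, unless TPM is named. The deposited TPM added up to 795528 to 859032 per library and were not rescaled. TPM levels and sums compared between libraries carry that difference, while ratios within a library do not.

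The 5 activating receptors had log2 changes of 1.02 to 2.02 in LPS lungs against control lungs on day 5. Their means were highest in LPS plus RSBD lungs, as were those of all 10 members. Of these, 4 rose in LPS against control, with Klra4 not passing the test, and all 5 rose in LPS plus RSBD against control. The shares of all genes tested called higher in these comparisons were 8.79% and 1.89%. Among the 10 members, none was called between LPS plus RSBD and LPS. Klrg1, the inhibitory member, had a log2 change of 1.19 in LPS against control, above that of the activating Klrk1, but did not pass the test in either comparison with control. Of further receptors outside the members, 4 of 7 activating and 3 of 11 inhibitory ones also rose in LPS against control. The largest of these changes were those of the inhibitory Klra3 (2.58) and Klra7 (2.21), above every activating member. Eomes, the transcription factor, was not called in any comparison. A gene was called where the adjusted p of edgeR's quasi-likelihood test, taken over all genes tested, was under 0.05. The members' per-library levels are shown in the plot of CPM by group, and their fitted changes in the plot of fold changes.

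**Figure D1:**
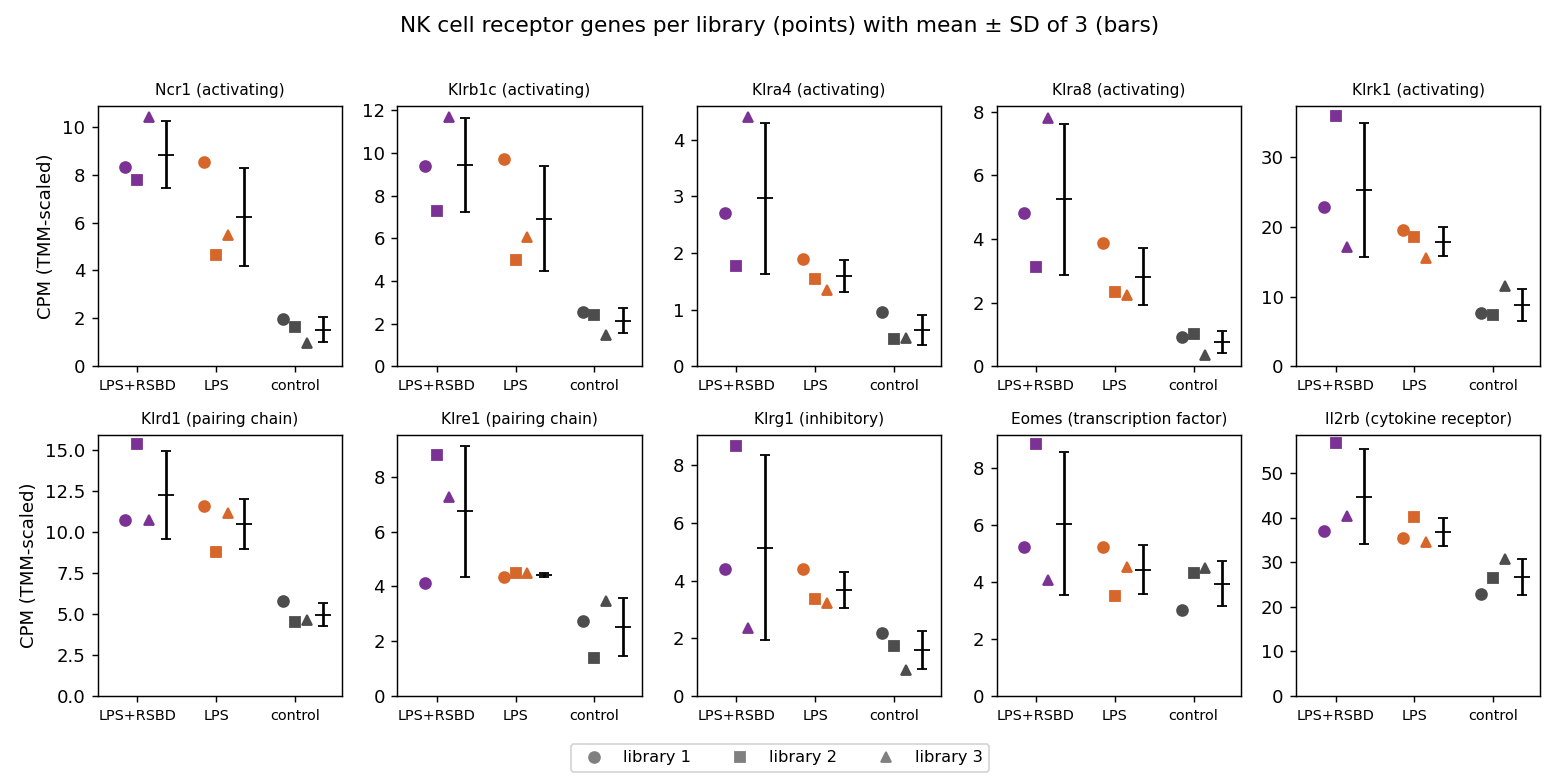
Level of each of the 10 genes in CPM (y axes from 0) in each library, with LPS plus RSBD, LPS and control from left to right. Symbols mark library 1, 2 and 3 of a group and bars give the mean ± SD of 3 libraries. Ncr1 lies at 7.78 to 10.4 CPM in LPS plus RSBD, 4.64 to 8.54 in LPS and 0.961 to 1.97 in control libraries, while the groups overlap for Eomes.

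Ncr1 encodes NKp46, an activating receptor carried by nearly all NK cells and by some other innate lymphoid cells (ENSMUSG00000062524, mm10 chromosome 7, 4337724 to 4345164, plus strand). It measured 8.31, 7.78 and 10.4 CPM in RSBD 1 to 3, 8.54, 4.64 and 5.49 CPM in LPS 1 to 3, and 1.97, 1.66 and 0.961 CPM in control 1 to 3. All 6 LPS-treated libraries lay above all 3 control libraries, and LPS 1 lay within the range of the LPS plus RSBD libraries. The log2 fold change was 2.02 ± 0.32 (SE) in LPS against control (edgeR adjusted p = 0.00553) and 2.52 ± 0.32 in LPS plus RSBD against control (adjusted p = 0.00899). It was 0.50 ± 0.29 in LPS plus RSBD against LPS (adjusted p = 0.627).

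Klrb1c encodes NK1.1, an activating lectin-like receptor by which NK cells of C57BL/6 mice are usually identified (ENSMUSG00000030325, chromosome 6, 128778485 to 128789215, minus strand). Its levels were 9.38, 7.29 and 11.7 CPM in RSBD 1 to 3, 9.73, 5.00 and 6.07 CPM in LPS 1 to 3, and 2.57, 2.39 and 1.46 CPM in control 1 to 3. The order of the libraries resembled that of Ncr1, with RSBD 3 highest, LPS 1 highest of its group and control 3 lowest. Klrb1c rose by 1.69 ± 0.32 in LPS against control (adjusted p = 0.00947) and by 2.14 ± 0.32 in LPS plus RSBD against control (adjusted p = 0.0120), with 0.45 ± 0.30 in LPS plus RSBD against LPS (adjusted p = 0.674). Of the windows of 100 bases along its longest transcript, 12.6% also occur in Gm44511, an overlapping gene model on the same strand, or in Klrb1a, so its reads could be split.

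Klra4 and Klra8 encode Ly49D and Ly49H, activating members of the Ly49 family that signal through the adaptor DAP12. Ly49H is known for recognising a protein of mouse cytomegalovirus. Klra8 (ENSMUSG00000089727, chromosome 6, 130115226 to 130129898, minus strand) measured 4.83, 3.13 and 7.82 CPM in RSBD 1 to 3, 3.86, 2.35 and 2.25 CPM in LPS 1 to 3, and 0.915, 1.02 and 0.356 CPM in control 1 to 3. Its changes were 1.87 ± 0.46 in LPS against control (adjusted p = 0.0251), 0.90 ± 0.42 in LPS plus RSBD against LPS (adjusted p = 0.551) and 2.77 ± 0.46 in LPS plus RSBD against control (adjusted p = 0.0162), the largest estimate of any member in that comparison. The LPS call was lost without LPS 1, LPS 2, control 2 or control 3, and the LPS plus RSBD call without control 2 or control 3 (highest adjusted p = 0.0715 and 0.054).

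Klra4 (ENSMUSG00000079852, chromosome 6, 130043731 to 130067271, minus strand) measured 2.71, 1.77 and 4.40 CPM in RSBD 1 to 3, 1.89, 1.53 and 1.34 CPM in LPS 1 to 3, and 0.950, 0.478 and 0.498 CPM in control 1 to 3. These values rest on few reads, 55 to 121 per library in LPS plus RSBD, 37 to 51 in LPS and 14 to 27 in control. The LPS and control libraries did not overlap, yet the change of 1.31 ± 0.43 did not pass (adjusted p = 0.0605). It passed with DESeq2, without RSBD 2, without RSBD 3 and without control 1 (lowest adjusted p = 0.0273). Against control, LPS plus RSBD was higher by 2.2 ± 0.43 (adjusted p = 0.0262), a call lost without RSBD 1, RSBD 3, control 2 or control 3, with the replicate block and in a fit of those 2 groups only (highest adjusted p = 0.105). Against LPS it was higher by 0.89 ± 0.40 (adjusted p = 0.528).

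The transcripts of Klra4 and Klra8 were identical at 78.7% of aligned bases, and other Ly49 transcripts came closer to each, with 90.6% and 91.3% identity of Klra8 to Klra9 and Klra10 and 87.4% of Klra4 to Klra1. No window of 100 bases of Klra4 occurs in another gene, whereas 14.4% of those of Klra8 occur in Klra14-ps or Klra9. The level of Klra8 over that of Klra4, in TPM, was 1.89, 1.87 and 1.88 in RSBD 1 to 3, 2.16, 1.62 and 1.79 in LPS 1 to 3, and 1.01, 2.33 and 0.713 in control 1 to 3. The ratio was thus nearly the same in the 3 LPS plus RSBD libraries, although each gene's own CPM differed there by up to 2.48-fold (Klra4) and 2.50-fold (Klra8).

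The ratio of this pair was steady in the LPS plus RSBD libraries, but ran from 1.62 to 2.16 in LPS and from 0.713 to 2.33 in control libraries. The sequences before the pair's transcription starts are printed as a description, and a link to the ratio was not tested. Upstream sequences of other Ly49 genes were not aligned. Each printed sequence holds the 250 bases before the RefSeq start (build GRCm38.p6, minus strand, 5′ to 3′), at chr6:130067272-130067521 for Klra4 and chr6:130129899-130130148 for Klra8. Capitals mark the bases that differ or have no partner in the alignment of the pair, 38 in each. Over 249 aligned bases the pair was 85.1% identical.
Klra4: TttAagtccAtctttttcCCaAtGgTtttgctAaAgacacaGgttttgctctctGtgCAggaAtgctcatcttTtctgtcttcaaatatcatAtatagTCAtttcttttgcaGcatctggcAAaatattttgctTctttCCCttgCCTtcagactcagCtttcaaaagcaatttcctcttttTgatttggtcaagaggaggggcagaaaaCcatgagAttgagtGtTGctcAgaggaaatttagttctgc
Klra8: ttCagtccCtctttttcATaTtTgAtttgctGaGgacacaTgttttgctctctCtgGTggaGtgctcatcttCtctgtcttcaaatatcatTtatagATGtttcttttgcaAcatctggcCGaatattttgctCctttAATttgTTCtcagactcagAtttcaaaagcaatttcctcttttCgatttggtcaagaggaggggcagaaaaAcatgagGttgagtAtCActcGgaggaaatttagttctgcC

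Klrk1 encodes NKG2D, an activating receptor for stress-induced ligands that is also found on activated CD8 T cells (ENSMUSG00000030149, chromosome 6, 129610323 to 129623864, minus strand). It measured 22.9, 35.9 and 17.2 CPM in RSBD 1 to 3, 19.6, 18.6 and 15.6 CPM in LPS 1 to 3, and 7.64, 7.36 and 11.5 CPM in control 1 to 3. RSBD 2 was the highest library and control 3 the highest control, the libraries in which Ncr1 was lowest within each group. Klrk1 rose by 1.02 ± 0.27 in LPS against control (adjusted p = 0.0327) and by 1.52 ± 0.27 in LPS plus RSBD against control (adjusted p = 0.0223). The LPS call was lost without any LPS library, control 1 or control 2 and with the replicate block (highest adjusted p = 0.109). The LPS plus RSBD call was lost without RSBD 2, control 1 or control 2, with the replicate block and in the fit of 2 groups (highest adjusted p = 0.0851). The difference between LPS plus RSBD and LPS was 0.50 ± 0.26 (adjusted p = 0.600).

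For 3 of the other activating members the 250 bases before the RefSeq start are printed to show short motifs of transcription factors that NK cells use. Capitals mark TGTGGT, a core recognised by Runx factors, and AGGAAG, a core recognised by Ets factors, on either strand. Ncr1 lies at chr7:4337474-4337723 on the plus strand, Klrb1c at chr6:128788642-128788891 and Klrk1 at chr6:129623865-129624114 on the minus strand (GRCm38.p6, 5′ to 3′). The Klrb1c window lies wholly inside the span given above for that gene, whose start there is upstream of this RefSeq start.
Ncr1: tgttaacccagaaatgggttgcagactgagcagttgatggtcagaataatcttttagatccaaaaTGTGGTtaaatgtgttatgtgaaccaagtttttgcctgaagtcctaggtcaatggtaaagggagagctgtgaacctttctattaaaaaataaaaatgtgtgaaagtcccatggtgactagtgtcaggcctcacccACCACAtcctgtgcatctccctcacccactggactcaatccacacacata
Klrb1c: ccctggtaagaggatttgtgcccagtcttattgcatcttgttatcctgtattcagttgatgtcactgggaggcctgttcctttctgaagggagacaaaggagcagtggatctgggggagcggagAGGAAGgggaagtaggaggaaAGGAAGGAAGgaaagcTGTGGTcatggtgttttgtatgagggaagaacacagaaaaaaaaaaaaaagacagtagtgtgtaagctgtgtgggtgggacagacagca
Klrk1: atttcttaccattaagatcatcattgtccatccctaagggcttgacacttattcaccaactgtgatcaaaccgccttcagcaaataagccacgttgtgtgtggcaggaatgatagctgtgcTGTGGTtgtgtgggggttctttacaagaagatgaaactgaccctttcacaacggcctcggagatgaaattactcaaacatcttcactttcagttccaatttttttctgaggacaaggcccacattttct

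RefSeq windows were matched for 7 of the 10 members, with 10 windows in all. TGTGGT occurred in 5 of these 10 windows, those of Ncr1, Klrb1c, Klrk1 and Klre1, and in 14.0% of all 32851 windows of the same length. The 2 windows of Ncr1 overlap and hold the same matches, so that stretch was counted in both. The windows of Klre1 also overlap each other, as do those of Klra8, so the 10 windows are not independent. By the gene spans given here, the windows of Klrb1c and Klre1 lie inside their genes, and a Klra8 window that is not printed lies partly inside. These windows therefore do not hold only bases before the gene. AGGAAG occurred in 2 of the 10 windows, of Klrb1c and Klre1, against 29.5% of all windows, and 2 of its 3 matches in Klrb1c overlap each other. GGTGTGA, a core of the T-box motif bound by Eomes and its relatives, occurred in 0 of the 10 windows and in 3.33% of all windows. No window of Klra4 or Klra8 held any of these 3 motifs. A match describes letters in the window and no binding.

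Klrd1 encodes CD94, which pairs with the inhibitory chain NKG2A (Klrc1) or with the activating chains of Klrc2 and Klrc3 and recognises the MHC class I-related molecule Qa-1 (ENSMUSG00000030165, chromosome 6, 129591782 to 129598775, plus strand). Its levels were 10.7, 15.4 and 10.7 CPM in RSBD 1 to 3, 11.6, 8.78 and 11.2 CPM in LPS 1 to 3, and 5.77, 4.49 and 4.63 CPM in control 1 to 3. The lowest LPS-treated library lay above the highest control library. Klrd1 rose by 1.08 ± 0.20 in LPS against control (adjusted p = 0.00921) and by 1.31 ± 0.20 in LPS plus RSBD against control (adjusted p = 0.0136, lost without control 2 or control 3, highest 0.0569). It was 0.22 ± 0.19 higher in LPS plus RSBD than in LPS (adjusted p = 0.767).

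Klre1 encodes a chain that pairs with the inhibitory Klri1 or the activating Klri2 product (ENSMUSG00000050241, chromosome 6, 129577905 to 129585827, plus strand). It measured 4.11, 8.81 and 7.27 CPM in RSBD 1 to 3, 4.35, 4.47 and 4.47 CPM in LPS 1 to 3, and 2.75, 1.37 and 3.45 CPM in control 1 to 3. The 3 LPS libraries were nearly equal, while the LPS plus RSBD libraries spanned a 2.14-fold range. No comparison was called, with 0.82 ± 0.36 in LPS against control (adjusted p = 0.135), 0.60 ± 0.35 in LPS plus RSBD against LPS (adjusted p = 0.627) and 1.42 ± 0.36 in LPS plus RSBD against control (adjusted p = 0.0567). The last was called with DESeq2 and without RSBD 1.

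Klrg1 encodes an inhibitory receptor for E-cadherin, carried by mature NK cells and by effector T cells (ENSMUSG00000030114, chromosome 6, 122270596 to 122282882, minus strand). It measured 4.39, 8.65 and 2.36 CPM in RSBD 1 to 3, 4.38, 3.36 and 3.24 CPM in LPS 1 to 3, and 2.18, 1.72 and 0.890 CPM in control 1 to 3. RSBD 2 and RSBD 3 differed by 3.66-fold, the widest spread of any member within that group. The change was 1.19 ± 0.47 in LPS against control (adjusted p = 0.103) and 1.68 ± 0.47 in LPS plus RSBD against control (adjusted p = 0.0762). Both were called with DESeq2, and the second also without RSBD 3. Against LPS the LPS plus RSBD value was 0.49 ± 0.45 (adjusted p = 0.787), and it was -0.11 without RSBD 2.

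Eomes encodes a T-box transcription factor needed for conventional NK cells and also made by CD8 T cells (ENSMUSG00000032446, chromosome 9, 118478212 to 118486132, plus strand). It measured 5.24, 8.87 and 4.07 CPM in RSBD 1 to 3, 5.24, 3.53 and 4.54 CPM in LPS 1 to 3, and 3.03, 4.33 and 4.48 CPM in control 1 to 3. The 3 groups overlapped, and RSBD 2 stood above all other libraries. The changes were 0.17 ± 0.31 in LPS against control (adjusted p = 0.739), 0.45 ± 0.31 in LPS plus RSBD against LPS (adjusted p = 0.683) and 0.62 ± 0.31 in LPS plus RSBD against control (adjusted p = 0.264).

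Il2rb encodes the beta chain shared by the receptors of interleukin 2 and of interleukin 15, a survival factor of NK cells (ENSMUSG00000068227, chromosome 15, 78479256 to 78495271, minus strand). It measured 37.0, 56.8 and 40.4 CPM in RSBD 1 to 3, 35.5, 40.2 and 34.5 CPM in LPS 1 to 3, and 22.8, 26.4 and 30.8 CPM in control 1 to 3. All LPS-treated libraries lay above the controls. Against control, the change was 0.46 ± 0.17 in LPS (adjusted p = 0.0814) and 0.75 ± 0.17 in LPS plus RSBD (adjusted p = 0.0414). The second call was lost under 10 of 16 alternatives, among them leaving out RSBD 2, LPS 2, LPS 3 or any control library (highest adjusted p = 0.129). The first was gained with DESeq2, without RSBD 2 and in the fit of 2 groups (lowest adjusted p = 0.0372). Against LPS, LPS plus RSBD was higher by 0.28 ± 0.17 (adjusted p = 0.631).

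**Figure D2:**
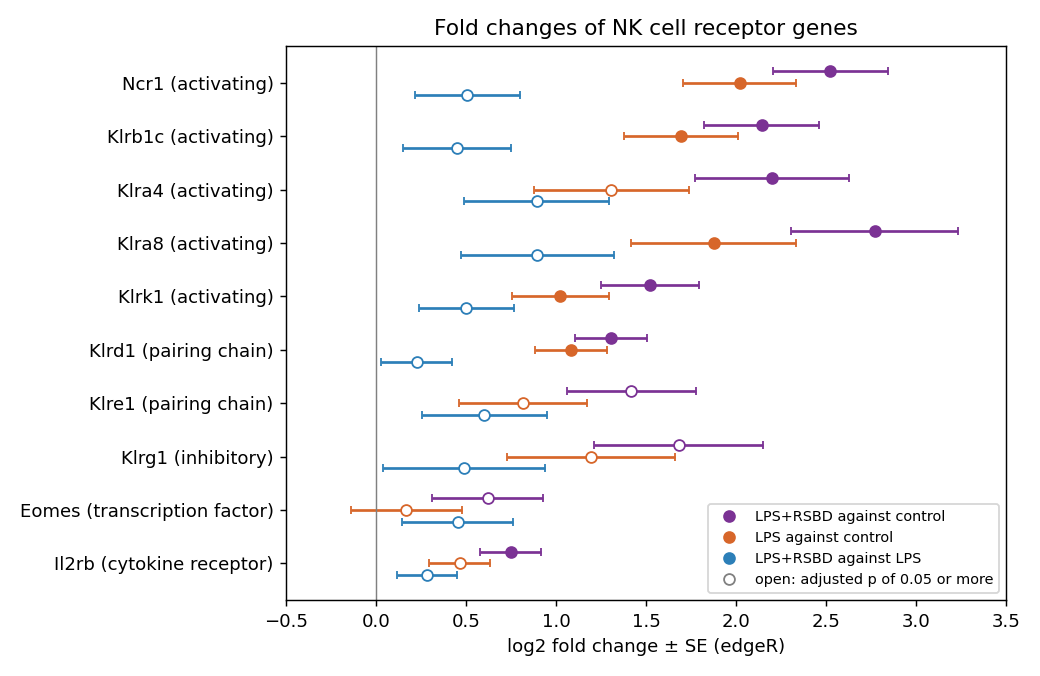
Fitted log2 fold change ± SE (x axis) of each of the 10 genes in LPS plus RSBD against control, LPS against control and LPS plus RSBD against LPS. Filled points had an edgeR adjusted p under 0.05; the estimates against control run from 0.17 for Eomes to 2.77 for Klra8, and all points of LPS plus RSBD against LPS are open.

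In LPS against control, 5 of the 10 members rose and 0 fell, where 8.79% of all genes tested were called higher. The groups did not overlap for 9 of 10 members, all higher in LPS, against 18.6% of all genes. The median log2 change of the members was 1.14 and that of all genes -0.01. The count was 3 without LPS 1, LPS 2 or control 2, and 8 with DESeq2. Against control, 7 members rose in LPS plus RSBD and 0 fell, against 1.89% of all genes called higher. The groups did not overlap for 9 of 10 members, against 15.4% of all genes, and the median change was 1.60 against 0.01 for all genes. That count was 2 without control 2, 3 without control 3, and 4 with the replicate block or in a fit of those 2 groups only. Both comparisons use the same 3 control libraries, and the members were chosen with earlier results of these data known.

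In LPS plus RSBD against LPS, 0 of the 10 members were called, and 0% of all 15636 genes were called by edgeR. At an unadjusted p under 0.05 the counts were 0 of 10 members and 1473 genes. DESeq2 called 0 members and 165 genes, and limma on log2(TPM + 1) 0 members and 1 gene. All 10 estimates were above 0, with a median of 0.50 against 0.01 for all genes, and the members share their libraries. For 0 of the 10 members were the 2 groups free of overlap, against 7.18% of all genes higher in LPS plus RSBD. The SE of the members in this comparison ran from 0.17 (Il2rb) to 0.45 (Klrg1), against estimates of 0.22 (Klrd1) to 0.90 (Klra8).

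On the TPM scale, which allows levels of different genes to be set side by side, Klrd1 was the most abundant member in LPS plus RSBD and LPS libraries, at 25.9 ± 5.56 and 22.0 ± 5.201 TPM (SD, n = 3 each). Il2rb was the most abundant in control libraries, at 11.6 ± 2.04 TPM, and overlapped Klrd1 at 10.8 ± 0.887 TPM. In LPS plus RSBD the order below Klrd1 was Klrk1, Il2rb, Ncr1, Klre1, Klra8, Klrb1c, Klrg1, Klra4 and Eomes, at 23.4, 18.2, 10.2, 8.28, 7.59, 7.29, 6.19, 4.04 and 3.02 TPM. Neighbours in that order overlapped in all cases but Il2rb and Ncr1. In LPS the order was Klrd1, Klrk1, Il2rb, Ncr1, Klrb1c, Klre1, Klrg1, Klra8, Eomes and Klra4, where Il2rb and Ncr1, and Klra8 and Eomes, did not overlap. In control it was Il2rb, Klrd1, Klrk1, Klre1, Eomes, Klrg1, Ncr1, Klrb1c, Klra8 and Klra4, where Klrd1 stood clear of Klrk1 and Klrk1 of Klre1. Ncr1 was 4 of 10 in rank in both LPS-treated groups and 7 of 10 in control, where it overlapped its neighbours.

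The members did not all move by the same factor as Ncr1, whose estimate in LPS against control was the largest of all members. A ratio to Ncr1 therefore tends to be lower in LPS for any other member. The log2 ratio of Eomes to Ncr1, in TPM, was -1.88, -1.01 and -2.62 in RSBD 1 to 3, -1.92, -1.59 and -1.35 in LPS 1 to 3, and -0.54, 0.35 and 1.11 in control 1 to 3. Both LPS-treated groups lay below all controls. The same ratio for Klrd1 ranged from 0.90 to 1.84 in LPS plus RSBD, from 1.31 to 1.85 in LPS and from 2.33 to 3.14 in control libraries, and that of Il2rb from 0.45 to 1.36 in LPS plus RSBD, from 0.54 to 1.62 in LPS and from 2.05 to 3.56 in control. Klrb1c shifted less, with -0.65 to -0.41 in LPS plus RSBD, -0.40 to -0.35 in LPS and -0.12 to 0.08 in control. The ratios of Klra4 and Klra8 to Ncr1 overlapped between control and both LPS-treated groups, with -1.90 to -1.002, -1.95 to -1.36 and -1.59 to -0.64 for Klra4 in LPS plus RSBD, LPS and control. Those of Klrk1 and Klre1 overlapped too, with 0.40 to 1.925, 0.68 to 1.58 and 1.42 to 3.12 for Klrk1 in the same order. For Klrg1, LPS plus RSBD (-2.10 to 0.21) overlapped control (0.02 to 0.21), and LPS (-0.91 to -0.39) did not.

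Activating and inhibitory receptors were then set against each other over a wider list, of 12 activating and 13 inhibitory receptor genes. Of 7 further activating receptors, 4 rose in LPS against control and 0 fell: Klrb1f, a lectin-like receptor of the NK1.1 family, by 1.37 ± 0.28 (adjusted p = 0.0122), Klri2 by 1.35 ± 0.34 (adjusted p = 0.0275), Klrc2 by 0.82 ± 0.22 (adjusted p = 0.0343) and Cd226, the receptor for Pvr, by 0.73 ± 0.21 (adjusted p = 0.0376). Of 12 further inhibitory receptors 11 were tested and 3 rose, while Klra5 had too few reads. In LPS against control, 8.79% of all genes tested were called higher. Klra3, which encodes the Ly49C receptor for MHC class I, rose by 2.58 ± 0.40 (adjusted p = 0.00528), Klra7, which encodes Ly49G, by 2.21 ± 0.45 (adjusted p = 0.0127), and Cd96, a Pvr receptor also found on T cells, by 0.92 ± 0.26 (adjusted p = 0.0391). The median change was 0.82 over the 7 activating and 0.93 over the 11 inhibitory genes.

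Against control, 3 of the 7 further activating receptors rose in LPS plus RSBD (Klri2 by 1.83 ± 0.34, Klrb1f by 1.42 ± 0.27 and Klrc2 by 1.12 ± 0.22) and 3 of the 11 inhibitory ones (Klra3 by 2.06 ± 0.40, Klra9 by 1.99 ± 0.41 and Klra7 by 2.19 ± 0.45), with edgeR adjusted p from 0.024 to 0.0312. The medians were 1.12 over the activating and 1.64 over the inhibitory list, and 1.89% of all genes tested were called higher. Klrc1, the inhibitory partner of CD94, measured 5.73, 10.4 and 4.91 CPM in RSBD 1 to 3, 5.13, 6.63 and 4.40 CPM in LPS 1 to 3, and 2.01, 1.02 and 3.77 CPM in control 1 to 3, and was not called (adjusted p = 0.0739 in LPS plus RSBD and 0.0802 in LPS against control). Of these 18 genes, 0 were called by edgeR in LPS plus RSBD against LPS, with medians of 0.30 for the activating and 0.09 for the inhibitory list. An unadjusted p under 0.05 was found for 0 inhibitory genes and 1 activating gene, Cd226, which was lower in LPS plus RSBD (-0.46 ± 0.20). Of all 15636 genes, 1473 had such a p.

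Summed over the wider lists, activating receptors reached 68.8, 76.6 and 75.8 TPM in RSBD 1 to 3, 75.6, 50.4 and 47.4 TPM in LPS 1 to 3, and 26.98, 23.9 and 26.1 TPM in control 1 to 3. Inhibitory receptors reached 36.5, 70.8 and 32.9 TPM in RSBD 1 to 3, 41.6, 40.3 and 35.0 TPM in LPS 1 to 3, and 19.8, 20.7 and 24.5 TPM in control 1 to 3. Both sums were therefore higher in every LPS-treated library than in every control library. The activating over inhibitory ratio was 1.89, 1.08 and 2.30 in RSBD 1 to 3, 1.82, 1.25 and 1.35 in LPS 1 to 3, and 1.36, 1.16 and 1.07 in control 1 to 3. These ranges overlapped, and RSBD 2 lay within the range of the controls. Within the inhibitory sum, the inhibitory Klra genes reached 10.2, 12.9 and 11.0 TPM in RSBD 1 to 3, 7.34 to 12.9 in LPS and 2.32 to 3.90 in control. Without Cd226, Crtam, Tigit and Cd96 the ratio was 2.14, 1.46 and 2.98 in RSBD 1 to 3, 1.36 to 1.96 in LPS and 1.26 to 1.56 in control. Among the members alone, the 5 activating genes over Klrg1 gave 8.96, 5.36 and 19.3 in RSBD 1 to 3, 7.91, 7.60 and 7.72 in LPS 1 to 3, and 4.95, 5.49 and 11.7 in control 1 to 3, again with overlap. No test was made of these ratios, because the genes were chosen with results known.

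**Figure D3:**
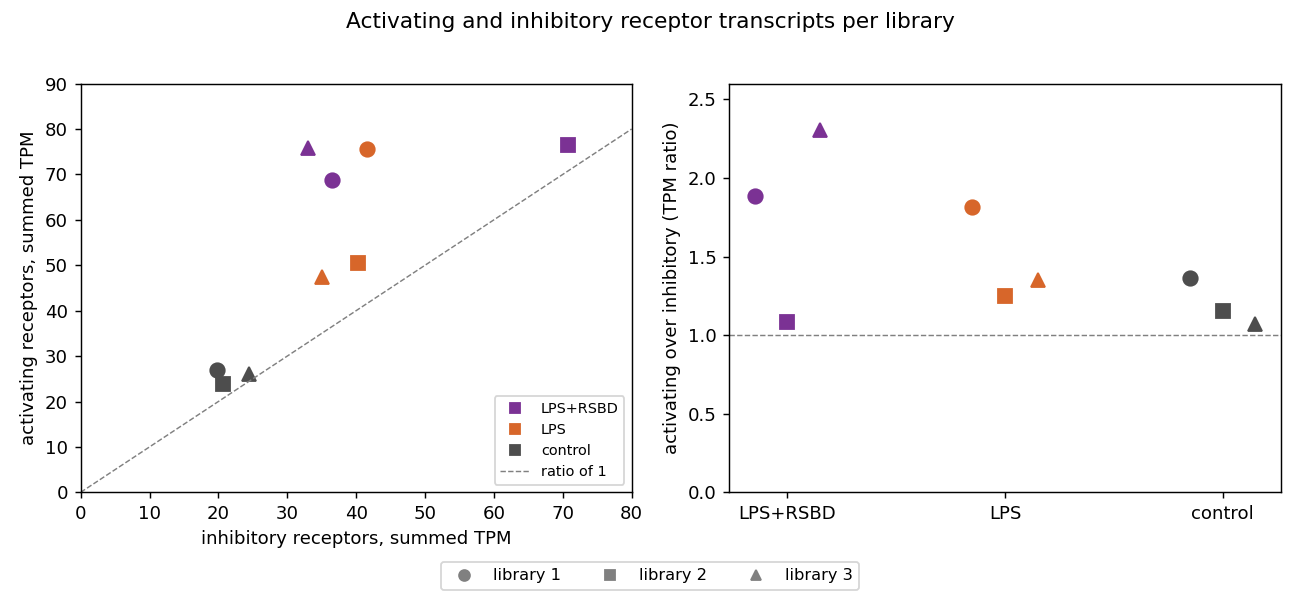
Left, summed TPM of 12 activating receptors (y axis) against 13 inhibitory receptors (x axis) in each library, with a dashed line at a ratio of 1; right, their ratio per library. Symbols mark library 1, 2 and 3 of each group; RSBD 2 combines the highest inhibitory sum, 70.8 TPM, with a ratio of 1.08, and RSBD 3 has the highest ratio, 2.30.

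The 3 LPS plus RSBD libraries differed among themselves along these lines. Ncr1, Klrb1c, Klra4 and Klra8 were highest of all 9 libraries in RSBD 3 and lowest of their group in RSBD 2. The other 6 members were highest of all 9 libraries in RSBD 2. The log2 ratio of RSBD 3 to RSBD 2 ran from 0.42 (Ncr1) to 1.32 (Klra8) among the first 4 genes and from -1.87 (Klrg1) to -0.28 (Klre1) among the other 6. Several other lists were also lower in RSBD 3 than in RSBD 2, with 0 of 12 cytotoxic effectors (median log2 ratio -0.74), 1 of 12 NK transcription factors (-0.55) and 1 of 11 further inhibitory receptors (-1.01) higher in RSBD 3. Of the 7 further activating receptors, 4 were higher in RSBD 3. T cell markers moved in the same direction as the second set, since 12 of 12 were lower in RSBD 3 than in RSBD 2, with a median log2 ratio of -1.05 against -0.00205 over all genes. Their summed level was 180, 326 and 151 TPM in RSBD 1 to 3, 191 to 199 TPM in LPS and 143 to 158 TPM in control libraries, and no marker was at 0. Cd8a, the CD8 alpha chain, measured 21.0, 56.9 and 17.3 CPM in RSBD 1 to 3. Their part in the members' spread was not tested.

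**Figure D4:**
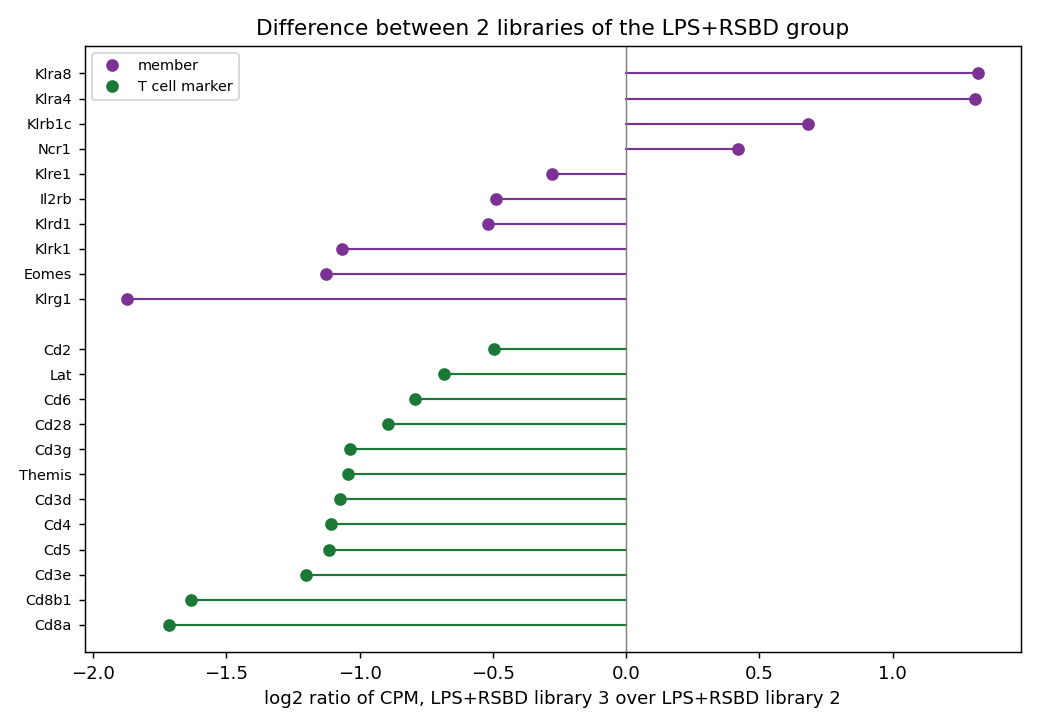
The log2 ratio of CPM in RSBD 3 to RSBD 2 (x axis) for the 10 members and for 12 T cell markers, each point being 1 gene. Klra8, Klra4, Klrb1c and Ncr1 lie to the right of 0, the other 6 members and all 12 T cell markers to the left.

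Of the 12 T cell markers, Cd2 rose in LPS against control (0.64 ± 0.18, edgeR adjusted p = 0.0411) and no other was called, with a median of 0.35. In that comparison 8.79% of all genes tested were called higher. By edgeR 0 of the 12 markers were called in LPS plus RSBD against control, where the median was 0.60, 7 had an unadjusted p under 0.05 and the smallest adjusted p was that of Cd2 (0.72 ± 0.18, adjusted p = 0.0594). Of all 15636 genes, 3555 had an unadjusted p under 0.05 in that comparison. Among 6 markers of type 1 innate lymphoid cells, Cd200r1 rose in LPS against control (0.89 ± 0.23, adjusted p = 0.0284). Their sum, made up mostly of Tmem176a and Tmem176b, which myeloid cells also express, was 1008 to 1046 TPM in LPS plus RSBD, 974 to 1020 TPM in LPS and 982 to 1188 TPM in control libraries. Of the 9 type 2 innate lymphoid and 6 B cell markers, 8 and 6 were tested and 0 called by edgeR in any comparison, with at most 3 and 4 at an unadjusted p under 0.05. Those maxima were in LPS against control, where 5402 of all genes had such a p, and in LPS plus RSBD against control, with 3555. B cell markers summed to 229 to 298 TPM in LPS plus RSBD, 186 to 218 TPM in LPS and 152 to 262 TPM in control libraries, and those of type 2 innate lymphoid cells to 53.5 to 67.9 TPM in LPS plus RSBD, 55.8 to 67.6 TPM in LPS and 59.0 to 66.5 TPM in control libraries. Their part in the members' changes was not tested.

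Of 15 adaptor and signalling genes that serve these receptors 14 were tested. In LPS plus RSBD against control 2 rose and 12 did not pass, where 1.89% of all genes tested were called higher. In LPS against control 8 rose, 0 fell and 6 did not pass (median 0.57), where 8.79% of all genes were called higher. Sh2d1b1, which encodes the adaptor EAT-2, rose by 1.67 ± 0.14 (adjusted p = 0.000694), the myeloid and lymphoid adaptor Lat2 by 0.85 ± 0.17 (adjusted p = 0.0112), Hcst, which encodes DAP10, the partner of NKG2D, by 1.31 ± 0.26 (adjusted p = 0.0114), and Fcer1g, an Fc receptor chain also abundant in myeloid cells, by 1.197 ± 0.27 (adjusted p = 0.0202). Tyrobp, which encodes DAP12 and is also abundant in myeloid cells, measured 67.2, 71.9 and 144 CPM in RSBD 1 to 3, 145, 193 and 126 CPM in LPS 1 to 3, and 76.3, 49.9 and 64.9 CPM in control 1 to 3. Against control, LPS plus RSBD libraries had higher Sh2d1b1 (1.24 ± 0.14, adjusted p = 0.00611) and Lat2 (0.71 ± 0.17, adjusted p = 0.0468). Between LPS plus RSBD and LPS 0 were called by edgeR, and 3 of the 14 estimates were above 0. An unadjusted p under 0.05 was found for 3 genes, all lower in LPS plus RSBD: Sh2d1b1 (-0.43 ± 0.14), Fcer1g (-0.67 ± 0.26) and Tyrobp (-0.71 ± 0.30). Of all 15636 genes, 1473 had such a p. The median of the adaptor list was -0.14, where that of the members was 0.50, and no test of that difference was made.

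Of the 16 genes of the interleukin 15, 2, 12 and 18 axis, 5 rose in LPS against control and 0 fell. In that comparison 8.79% of all genes were called higher. Il2rg, the common gamma chain, rose by 0.85 ± 0.13 (adjusted p = 0.00528), Il18 by 1.09 ± 0.19 (adjusted p = 0.00807), Il18rap, a chain of its receptor, by 1.27 ± 0.32 (adjusted p = 0.0306), Il18r1, the other chain, by 0.35 ± 0.10 (adjusted p = 0.0427) and Il12rb2, an interleukin 12 receptor chain, by 1.25 ± 0.37 (adjusted p = 0.0460). Il2rg (0.84 ± 0.13, adjusted p = 0.0143) and Il12rb2 (1.65 ± 0.37, adjusted p = 0.0419) also rose in LPS plus RSBD against control. There 1.89% of all genes were called higher. Of 14 ligands of NK receptors tested, Cd48, which binds the receptor 2B4, rose in LPS against control (0.84 ± 0.14, adjusted p = 0.00753) and Pvr fell by 0.42 ± 0.12 (adjusted p = 0.0388), where 8.63% of all genes were called lower. Cd48 also rose in LPS plus RSBD against control (0.65 ± 0.14, adjusted p = 0.0398).

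Of 12 transcription factors of NK cells other than Eomes, 0 were called by edgeR in any comparison. Tbx21, which encodes the related factor T-bet, changed by 0.29 ± 0.33 in LPS against control (adjusted p = 0.564) and by 0.73 ± 0.33 in LPS plus RSBD against control (adjusted p = 0.217). At an unadjusted p under 0.05 the counts were 1, 2 and 2 of the 12 in LPS against control, LPS plus RSBD against LPS and LPS plus RSBD against control. In the same order, 5402, 1473 and 3555 of all 15636 genes had such a p. Of 9 trafficking and adhesion genes, S1pr5, a receptor by which mature NK cells leave lymphoid organs, rose by 1.14 ± 0.23 in LPS against control (adjusted p = 0.0134) and by 1.11 ± 0.23 in LPS plus RSBD against control (adjusted p = 0.0344). Itga2, the integrin chain CD49b, rose by 0.62 ± 0.13 and 0.61 ± 0.13 (adjusted p = 0.0147 and 0.0373). Of 12 cytotoxic effector genes 5 rose in each of these comparisons, Gzmb, Gzma, Prf1, Ccl5 and Nkg7. Over all genes tested, 8.79% were called higher in LPS against control and 1.89% in LPS plus RSBD against control.

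The genes most like the members were sought among 14385 others with a mean of at least 1 CPM, by Pearson correlation with the mean standardised log2 CPM of the members over the 9 libraries. The 8 highest were Slc9a9, Gzmb, Prf1, Gzma, Man2b2, Ccl5, Slc30a1 and Nfkbil1, with coefficients of 0.963 to 0.981, which describe 9 libraries that fall into groups and carry no test. Granzyme B (Gzmb), a cytotoxic granule protease, measured 8.47, 22.8 and 14.9 CPM in RSBD 1 to 3, 11.8, 8.03 and 10.2 CPM in LPS 1 to 3, and 2.88, 2.32 and 2.17 CPM in control 1 to 3. Slc9a9, a sodium/hydrogen exchanger, measured 14.8, 16.8 and 14.3 CPM in RSBD 1 to 3, 15.1, 12.6 and 13.5 CPM in LPS 1 to 3, and 9.15, 9.84 and 8.72 CPM in control 1 to 3. Both had every LPS-treated library above every control library, as had Ncr1. The members' mean separated the libraries in the same way, so this follows from how the 8 genes were picked.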

How the data were processed

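Lung RNA of 9 mice was analysed. The libraries were paired-end and strand-specific and came from enriched mRNA, per the labels' protocols. The submitters' processing notes name GRCm38 (mm10) and, with no role, DESeq2 1.38.3, StringTie 2.2.0, HISAT2 2.2.1 and fastp 0.23.2. The authors deposited estimated counts (expected counts), whole in every cell, and TPM per gene. What tool counted the reads is not given in the sources used here. Member coordinates in the deposited table equal those of GENCODE M21.

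The main test was edgeR 4.0.16 (R 4.3.3). Low genes were removed by filterByExpr (minimum count 10, minimum total 15), scaled by TMM and fitted in 1 robust quasi-likelihood model of the 3 groups, with Benjamini-Hochberg adjustment over 15636 genes. The steps were tested on simulated data. Columns named RS were taken as the RSBD libraries. The numbers in the labels do not say that mice were paired. Replicates are biological per the series' design text.

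Alternatives were RLE scaling, no filter, DESeq2 1.42.0, limma 3.58.1 on log2(TPM + 1) and log2(TPM + 0.1), leaving out each library, a replicate block, and a fit of 2 groups. Sums and ratios between genes used the deposited TPM. The named genes are the 10 members, the 4 smallest p of each list among called genes, the 8 most similar genes, and others chosen after their values were seen. Members and lists were chosen with earlier results of these data known.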

Additional observations from a re-analysis of the deposited data

How the results depend on the processing

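Of 160 member values in LPS against control (10 genes under 16 alternatives), 142 kept their direction and their side of the threshold, 10 lost a call and 8 gained one. In LPS plus RSBD against control these numbers were 131, 25 and 4 of 160. In LPS plus RSBD against LPS 159 of 160 did so, and Klrg1 changed direction to -0.11 without RSBD 2, with up to 0.82 without another library (RSBD 3). Ncr1 and Klrb1c kept their calls against control under all 16 alternatives. Members called numbered 3 to 7 in LPS against control, 2 to 7 in LPS plus RSBD against control and 0 to 0 in LPS plus RSBD against LPS over the 9 fits that left out a library. DESeq2 called 8 members in LPS against control. With the replicate block 4 members were called in LPS plus RSBD against control, as were 4 in the fit of 2 groups. Over all genes, leaving out a library gave 786 to 2870 calls in LPS against control, 94 to 961 in LPS plus RSBD against control and 0 to 4 in LPS plus RSBD against LPS. The counts with all libraries were 2723, 578 and 0. DESeq2 called 1744 genes in LPS plus RSBD against control and 165 in LPS plus RSBD against LPS. Limma called 275 and 302 genes in LPS plus RSBD against control with pseudocounts of 1 and 0.1, and 1 gene with either in LPS plus RSBD against LPS. The replicate block gave 240 calls in LPS plus RSBD against control, and the fit of 2 groups 1 in LPS plus RSBD against LPS. In LPS against control edgeR's calls were 1374 higher and 1349 lower, and limma's, with a pseudocount of 1, 696 higher and 1300 lower. With a pseudocount of 0.1 the median of all genes moved to -0.10. The cause was not tested.

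The replicate block was an alternative only, because the numbers in the labels are not said to pair mice. Deviations from group means correlated at -0.215 to 0.122 between same-numbered libraries, with 2 of 9 pairs over 0.1. Between differently numbered libraries they correlated at -0.164 to 0.19, with 5 of 18 pairs over 0.1. The mean activating over inhibitory ratio, 1.76 in LPS plus RSBD, 1.47 in LPS and 1.195 in control, became 11.2, 7.74 and 7.39 with the members alone, 1.25, 1.09 and 0.859 without Klrk1, and 2.19, 1.61 and 1.43 without Cd226, Crtam, Tigit and Cd96. These 3 were chosen after the data were seen. Few reads lie behind Klra4 and Klra8 in control libraries, with 14 to 27 and 10 to 32 reads.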

Other observations

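A few receptors of the same gene family lie outside the lists and are given here after their values were seen. Klra2, which encodes Ly49B, an inhibitory receptor mainly of myeloid cells, measured 16.5, 24.7 and 40.9 CPM in RSBD 1 to 3, 48.0, 41.6 and 26.9 CPM in LPS 1 to 3, and 18.8, 14.0 and 18.8 CPM in control 1 to 3. It rose by 1.17 ± 0.32 in LPS against control (edgeR adjusted p = 0.0393) and was not called in LPS plus RSBD against LPS (-0.51 ± 0.32, adjusted p = 0.657). Klra17, which encodes Ly49Q, found on plasmacytoid dendritic cells and other myeloid cells, measured 1.04, 0.807 and 5.45 CPM in RSBD 1 to 3, 5.68, 4.93 and 2.44 CPM in LPS 1 to 3, and 4.93, 1.72 and 2.95 CPM in control 1 to 3, and was not called (adjusted p = 0.755 in LPS plus RSBD against LPS). RSBD 1 and RSBD 2 lay below all other libraries for Klra17.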
